A study of Mus musculus with 6 samples.

Results

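The DNA replication genes described here are 33 genes whose products license and fire replication origins, copy DNA, supply deoxynucleotides and control entry into S phase. They were taken by gene symbol from the deposited table of exon read counts, where 33 of 33 symbols were found among 23453 gene rows. All 33 had enough reads to enter the test, which covered 12423 genes. The libraries were made from cultured splenocytes of wild-type OT1 mice on the C57BL/6 strain, in which most T cells share a transgenic receptor that sees OVA. The 3 TCM libraries are from cells kept with OVA peptide for 48 h, after which TCM was given for 8 h. The 3 FCM libraries, titled vehicle, are from cells kept with the same peptide for 48 h, after which FCM was given for 8 h. TCM and FCM are not expanded in the labels, which name the cells cytotoxic T lymphocytes. Whether replicates are separate cultures or mice is not stated, so p-values here measure only the spread between libraries, which may be technical. Library totals ran from 17166687 to 25789381 counts. The ribosomal RNA row Rn45s held 11.6% of the total in TCM replicate 1 and 11.2% in FCM replicate 1. In the other libraries it held 16.0% to 18.9%.

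The count table and the normalized table title the groups oppositely. Each of 6 normalized columns, once multiplied by its size factor, gave back the counts of the library that the count table assigns to the opposite group under an equal replicate number. TCM and FCM below always mean the titles of the count table, and every direction given here reverses under the titles of the normalized table. Replicate 1 of both groups stood apart from replicates 2 and 3 on the second principal component, which held 8.32% of the variance, so counts of genes are also given without those libraries.

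Before S phase, Cdc6 and Cdt1 load the ring of Mcm2 to Mcm7 onto origins, a step called licensing. At firing, Cdc45 and the GINS complex join that ring to form the active helicase, DNA polymerases copy the strands behind it, and PCNA, a sliding clamp loaded by replication factor C, holds the polymerases to DNA. Transcription factors of the E2F family drive many of these genes as cells pass from G1 into S phase, and T cells that have met their antigen divide rapidly and so depend on this machinery.

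Most replication genes were higher in the TCM libraries. Of the 33 genes, 20 passed an adjusted p of 0.05 as higher in TCM (60.6%) and 1, Pold1, as lower, while 12 did not pass (edgeR's quasi-likelihood test, Benjamini-Hochberg adjustment over all genes tested). Among all genes tested 28.8% were called higher and 30.0% lower, 58.8% in all. With limma voom, 20 of the 33 were higher and 1 lower (28.4% and 29.9% of all genes), with DESeq2 23 and 1 (30.9% and 28.7%), with the replicate block 26 and 1 (36.3% and 37.0%), and with library totals alone as scaling 16 and 1 (19.0% and 31.9%). The median log2 fold change of TCM over FCM was 0.81 over the 33 genes and -0.02 over all genes tested. At least a 2-fold rise past the threshold was seen for 15 of the 33, against 13.1% of all genes. In 24 of the 33 every TCM library lay above every FCM library, and in 2 (Mcm2 and Pold1) every TCM library lay below, where the shares over all genes were 30.6% and 33.6%. Without replicate 1 of both groups, the test called 26 of the 33 higher and 2 lower, against 36.3% and 37.9% of the genes tested there. The summed level of the 33 genes was 1741, 1742 and 1877 CPM (depth-scaled read counts, with TMM factors) in the TCM libraries against 1108, 1040 and 1069 CPM in the FCM libraries. The members and lists were chosen with earlier results of these data known, so these counts describe them and are no independent support.

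**Figure D1:**
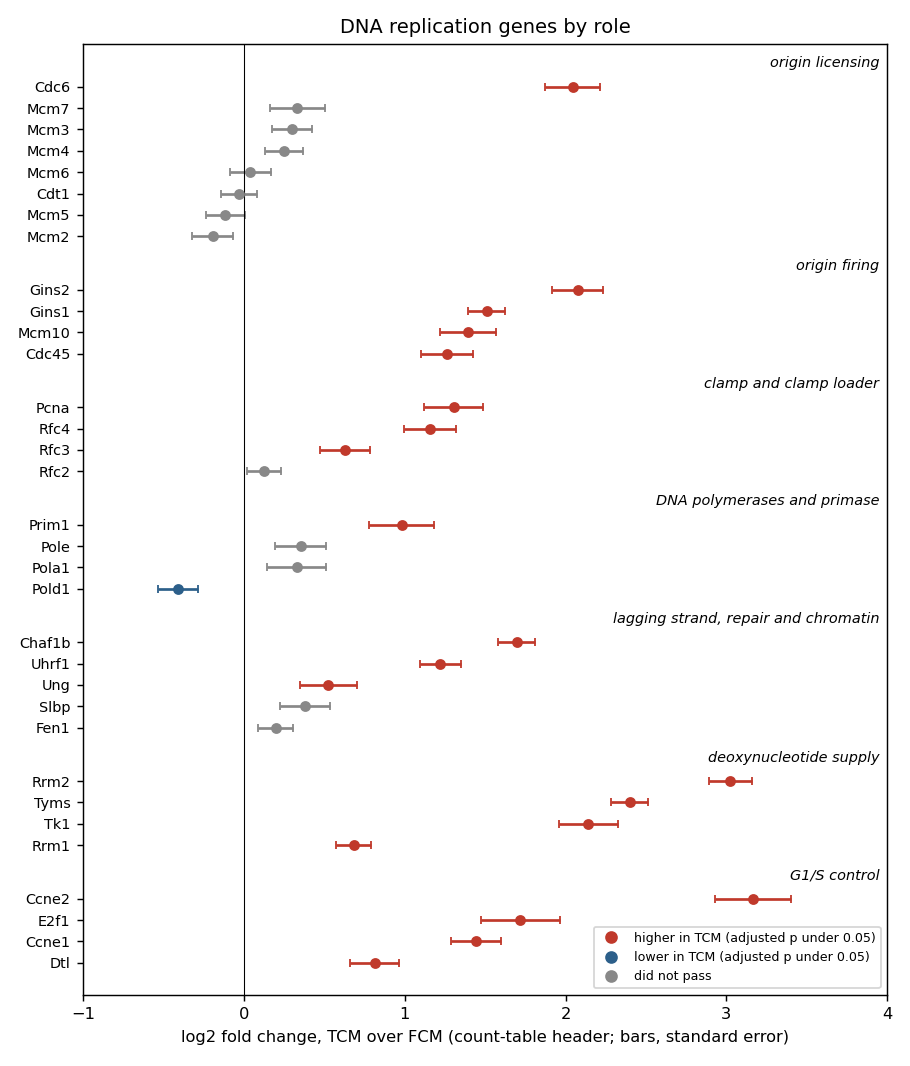
Log2 fold change of TCM over FCM (x axis; bars, standard error) for the 33 replication genes grouped by role, by the titles of the count table. All 12 genes of origin firing, deoxynucleotide supply and G1/S control lie to the right of 0, from 0.68 to 3.16, while Mcm2 to Mcm7 lie between -0.19 and 0.33.

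In a bulk culture, fewer cells of a type and less RNA per cell cannot be told apart, and the cell markers moved between the groups as well. T cell markers were present in all libraries, with a summed level of 1015 to 1199 CPM of the library total in TCM and 1260 to 1268 in FCM, and 1 of 12 was called higher and 3 lower. With TMM factors their median log2 fold change was 0.02. The marker sums here lack those factors, unlike the calls, and library totals alone shifted the median of all genes to -0.23. Of 7 cytotoxic T cell markers 4 were called higher and 1 lower (5310 to 5735 in TCM, 1745 to 1944 in FCM). Gzma, Gzmb, Nkg7 and Ifng were higher, the perforin gene Prf1 was lower (log2 -0.48), and Gzmk and Fasl did not pass. Most counts of this sum came from Gzmb, Ifng and Nkg7. B cell markers (5 of 8 lower, 1010 to 1126 in TCM and 2137 to 2261 in FCM) and macrophage and monocyte markers (5 of 8 lower and 1 higher, 139 to 228 in TCM and 648 to 745 in FCM) were lower in sum in TCM. Neutrophil markers differed most, with 11 of 12 lower and sums of 1675 to 2206 in TCM against 10310 to 13870 in FCM. Dendritic cell markers summed to 43.3 to 46.1 in TCM and 36.0 to 42.8 in FCM, with Clec9a, Siglech and Itgax called lower and Batf3 called higher among 6 tested. Without Batf3 that sum was 11.98 to 17.9 in TCM and 31.8 to 38.7 in FCM, so its direction turned. NK cell markers summed to 19.9 to 26.7 in TCM and 60.1 to 63.9 in FCM (2 of 3 lower) and erythroid markers to 2.15 to 2.74 in TCM and 5.35 to 6.79 in FCM (3 of 4 lower). Klra4, an NK cell receptor gene, and the globin gene Hba-a2 had 0 counts in all 6 libraries. The part of these shifts in the levels of the replication genes was not tested.

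Promoter windows are shown for the 4 largest rises among genes with a window and for the 4 such genes with the largest p among those that did not pass, because the letters of the E2F consensus divided the genes unevenly. The RefSeq promoter table (GRCm38.p6) held windows, from 250 bases before to 50 after a transcript start, for 27 of the 33 genes, 30 windows in all. Capitals mark a match to TTTCCCGC, TTTCGCGC, TTTGCCGC or TTTGGCGC on either strand, and overlapping matches run together. The first 4 windows belong to genes called higher in TCM and the last 4 to genes that did not pass. Each is written 5′ to 3′ on the strand of its gene.
Rrm2 (chr12:24708004-24708303, plus strand): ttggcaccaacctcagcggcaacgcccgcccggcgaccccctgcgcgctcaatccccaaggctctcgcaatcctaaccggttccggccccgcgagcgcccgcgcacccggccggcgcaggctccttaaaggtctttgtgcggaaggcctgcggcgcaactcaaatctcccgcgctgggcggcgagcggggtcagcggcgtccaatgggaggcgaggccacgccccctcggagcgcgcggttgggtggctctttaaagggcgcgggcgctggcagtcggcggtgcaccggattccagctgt
Tyms (chr5:30073576-30073875, minus strand): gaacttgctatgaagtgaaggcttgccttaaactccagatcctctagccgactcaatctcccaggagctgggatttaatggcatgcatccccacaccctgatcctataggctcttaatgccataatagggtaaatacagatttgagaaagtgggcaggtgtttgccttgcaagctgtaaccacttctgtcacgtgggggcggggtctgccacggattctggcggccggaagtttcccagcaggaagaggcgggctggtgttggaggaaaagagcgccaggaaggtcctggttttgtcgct
Tk1 (chr11:117825965-117826264, minus strand): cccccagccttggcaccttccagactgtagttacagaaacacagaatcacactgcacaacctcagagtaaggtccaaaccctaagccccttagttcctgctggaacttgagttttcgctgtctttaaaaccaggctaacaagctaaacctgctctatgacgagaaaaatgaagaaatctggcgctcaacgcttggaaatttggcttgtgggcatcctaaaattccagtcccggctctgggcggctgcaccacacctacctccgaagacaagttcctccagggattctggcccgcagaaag
Cdc6 (chr11:98907901-98908200, plus strand): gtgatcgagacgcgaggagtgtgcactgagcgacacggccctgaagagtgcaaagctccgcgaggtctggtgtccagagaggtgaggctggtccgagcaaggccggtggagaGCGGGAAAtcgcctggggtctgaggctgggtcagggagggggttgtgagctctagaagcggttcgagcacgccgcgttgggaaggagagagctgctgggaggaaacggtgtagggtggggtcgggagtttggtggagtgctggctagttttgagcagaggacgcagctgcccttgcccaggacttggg
Cdt1 (chr8:122567765-122568064, plus strand): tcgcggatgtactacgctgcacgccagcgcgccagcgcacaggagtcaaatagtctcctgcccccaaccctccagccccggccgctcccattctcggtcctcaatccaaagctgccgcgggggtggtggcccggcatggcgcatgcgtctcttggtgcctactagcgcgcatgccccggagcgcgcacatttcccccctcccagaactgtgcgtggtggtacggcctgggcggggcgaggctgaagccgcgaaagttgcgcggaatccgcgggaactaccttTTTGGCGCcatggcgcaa
Mcm6 (chr1:128359656-128359955, minus strand): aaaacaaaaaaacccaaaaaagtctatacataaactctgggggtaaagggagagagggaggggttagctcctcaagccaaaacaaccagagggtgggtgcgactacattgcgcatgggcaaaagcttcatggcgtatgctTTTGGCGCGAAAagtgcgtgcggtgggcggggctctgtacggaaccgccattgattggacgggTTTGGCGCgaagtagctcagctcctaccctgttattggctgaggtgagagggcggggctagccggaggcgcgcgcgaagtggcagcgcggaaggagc
Mcm5 (chr8:75109259-75109558, plus strand): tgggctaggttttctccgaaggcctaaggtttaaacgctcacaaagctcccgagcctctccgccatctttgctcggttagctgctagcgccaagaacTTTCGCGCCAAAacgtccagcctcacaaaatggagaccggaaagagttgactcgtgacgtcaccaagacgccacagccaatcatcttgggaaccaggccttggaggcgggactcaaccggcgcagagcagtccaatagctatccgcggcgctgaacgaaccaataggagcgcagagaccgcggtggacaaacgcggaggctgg
Mcm2 (chr6:88898731-88899030, minus strand): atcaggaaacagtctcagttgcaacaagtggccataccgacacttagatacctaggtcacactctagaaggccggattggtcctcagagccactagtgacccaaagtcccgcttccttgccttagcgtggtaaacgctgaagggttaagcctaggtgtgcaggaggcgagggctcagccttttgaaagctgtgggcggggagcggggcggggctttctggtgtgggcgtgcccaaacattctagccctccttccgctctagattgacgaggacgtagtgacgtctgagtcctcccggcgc

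The E2F letters stood in the windows of 11 of the 27 genes (40.7%), against 2.60% of all genes with a window and 4.71% of those that were tested. Among the genes with a window, 4 of 17 called higher in TCM held a match (23.5%), against 7 of the 10 not called higher (70.0%). Those 7 were the licensing genes Cdt1, Mcm3, Mcm5, Mcm6 and Mcm7 and the polymerase genes Pola1 and Pold1. In this list the letters and the roles cannot be told apart. Mcm7 and Uhrf1 each had another window without a match. The E2f1 window ended at base 154569676, short of the annotated gene start at 154569892. Both Mcm7 windows, ending at bases 138171516 and 138172133, also stopped short of its annotated start at 138172422. The Cdc6 window began at base 98907901, past the annotated start at 98907801. The Uhrf1 window with a match began at 56304063, past the annotated start at 56303321. Cdc6, Mcm7 and Uhrf1 are among the 11 genes with a match. Rrm2, Tyms and Tk1 above have no capitals, whereas Mcm6 has 3 matches and Mcm5 has 2, each with an overlapping pair on opposite strands. The 11 genes with a match had a median log2 fold change of 0.33 (from -0.41 for Pold1 to 2.04 for Cdc6) and the 16 genes without it 1.28 (from -0.19 for Mcm2 to 3.02 for Rrm2). The CHR letters TTTGAA, a mark of late cell cycle promoters, were in the windows of 3 of 27 genes (11.1%), against 20.2% of all genes with a window and 14.1% of those that were tested. The CCAAT letters were in 16 of 27 (59.3%), against 41.1% and 42.8%. These matches are descriptions of letters, and binding was not measured. A window without a match does not show that the gene lacks an E2F site.

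**Figure D2:**
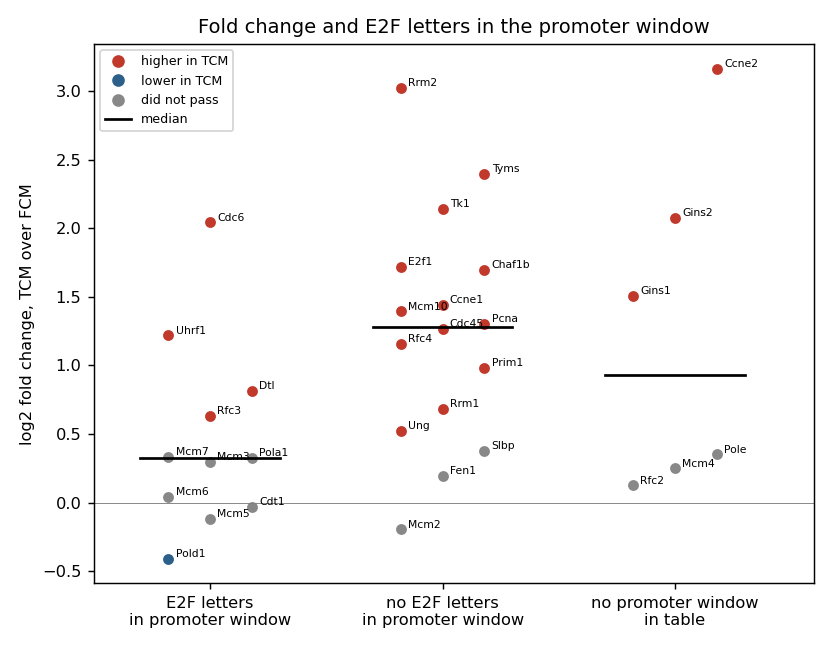
Log2 fold change of TCM over FCM (y axis) for the 33 genes, split by whether the promoter window holds the E2F letters, lacks them, or is not in the table (points, genes; lines, medians). The medians are 0.33 with the letters (11 genes), 1.28 without (16 genes) and 0.93 for the 6 genes with no window.

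Of the genes that supply deoxynucleotides, 4 of 4 were higher in TCM. The counts by role here and below stand beside 28.8% higher and 30.0% lower over all genes tested. Roles hold 4 to 8 genes each, and no role was tested as a set. Rrm2, the small subunit of ribonucleotide reductase, which turns ribonucleotides into deoxynucleotides, had 83.0, 77.2 and 77.0 CPM in the TCM libraries against 8.94, 9.09 and 11.1 CPM in the FCM libraries. The groups were far apart and the replicates close together, and Rrm2 was 8.13-fold higher in TCM (log2 fold change 3.02 ± 0.13, SE; adjusted p = 5.76e-07, edgeR). Rrm1, the large subunit of the same enzyme, had 51.7, 46.0 and 52.4 CPM in TCM against 32.3, 31.3 and 30.0 CPM in FCM, 1.60-fold higher (adjusted p = 0.00084, edgeR). Its call is lost with library totals alone as scaling (log2 0.47, adjusted p = 0.0611). The count ratio of Rrm2 to Rrm1 was 1.61, 1.68 and 1.47 in the TCM libraries against 0.277, 0.291 and 0.371 in the FCM libraries, and the groups did not overlap in this ratio. Tyms, the thymidylate synthase, had 55.8, 58.5 and 57.1 CPM in TCM against 11.1, 10.1 and 11.4 CPM in FCM, 5.27-fold higher (log2 2.40 ± 0.11; adjusted p = 8.32e-07, edgeR). Tk1, the thymidine kinase of the salvage pathway, had 20.2, 26.0 and 31.4 CPM in TCM against 6.58, 5.13 and 5.89 CPM in FCM, 4.41-fold higher (log2 2.14 ± 0.18; adjusted p = 2.08e-05, edgeR). TCM replicate 1 was the lowest of its group for Tk1 and still lay above every FCM library. The summed level of these 4 genes was 212 ± 5.30 CPM in TCM and 57.6 ± 1.78 CPM in FCM (SD, n = 3 each).

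Of the 8 licensing genes, 1 (Cdc6) was higher in TCM (12.5%, against 28.8% of all genes tested) and 7 did not pass. Cdc6, the ATPase that loads the helicase ring, had 10.7, 13.0 and 15.4 CPM in TCM against 2.95, 3.48 and 3.02 CPM in FCM, 4.12-fold higher (log2 2.04 ± 0.17; adjusted p = 1.80e-05, edgeR). Cdt1, its partner in loading, had 58.5, 53.6 and 52.7 CPM in TCM against 56.1, 53.0 and 59.5 CPM in FCM. The Cdt1 values overlapped and gave a log2 fold change of -0.03 ± 0.11 (adjusted p = 0.82, edgeR). The 6 subunits of the Mcm2 to Mcm7 ring summed to 457, 383 and 448 CPM in TCM against 408, 398 and 399 CPM in FCM, and they made up 24.0% ± 2.15 of the reads of all 33 genes in TCM and 37.5% ± 0.768 in FCM (SD, n = 3 each). Log2 fold changes were -0.19 ± 0.13 for Mcm2, 0.30 ± 0.13 for Mcm3, 0.25 ± 0.12 for Mcm4, -0.12 ± 0.12 for Mcm5, 0.04 ± 0.13 for Mcm6 and 0.33 ± 0.17 for Mcm7. Of the 6, 0 passed edgeR's adjusted threshold, 1 had an unadjusted p under 0.05, limma voom called 0 and DESeq2 called 2 (Mcm3 and Mcm4).

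Calls on single ring subunits depended on the fit. Mcm2 had 74.6, 59.4 and 72.9 CPM in TCM against 78.5, 80.1 and 78.1 CPM in FCM, below FCM in every library. Mcm3 had 82.4, 69.7 and 85.9 CPM in TCM against 61.8, 67.3 and 64.6 CPM in FCM, and Mcm4 had 76.3, 72.6 and 80.8 CPM in TCM against 65.8, 60.1 and 67.2 CPM in FCM. The groups did not overlap for Mcm3 and Mcm4, with TCM above FCM, and they overlapped for Mcm5, Mcm6 and Mcm7. With the replicate number as a block, Mcm3 (log2 0.29, adjusted p = 0.00822), Mcm4 (0.25, 0.0249) and Mcm7 (0.31, 0.00427) passed in edgeR as higher in TCM. Without replicate 1 of both groups these 3 passed again and Mcm2 passed as lower (log2 -0.27, adjusted p = 0.014). With the trend on transcript length or GC content removed, Mcm3 and Mcm4 passed as well. TCM replicate 1 was the highest library for Mcm7, with 88.3 CPM against 61.7 and 60.7 CPM in the other TCM libraries, while the FCM libraries had 62.4, 52.3 and 52.8 CPM.

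**Figure D3:**
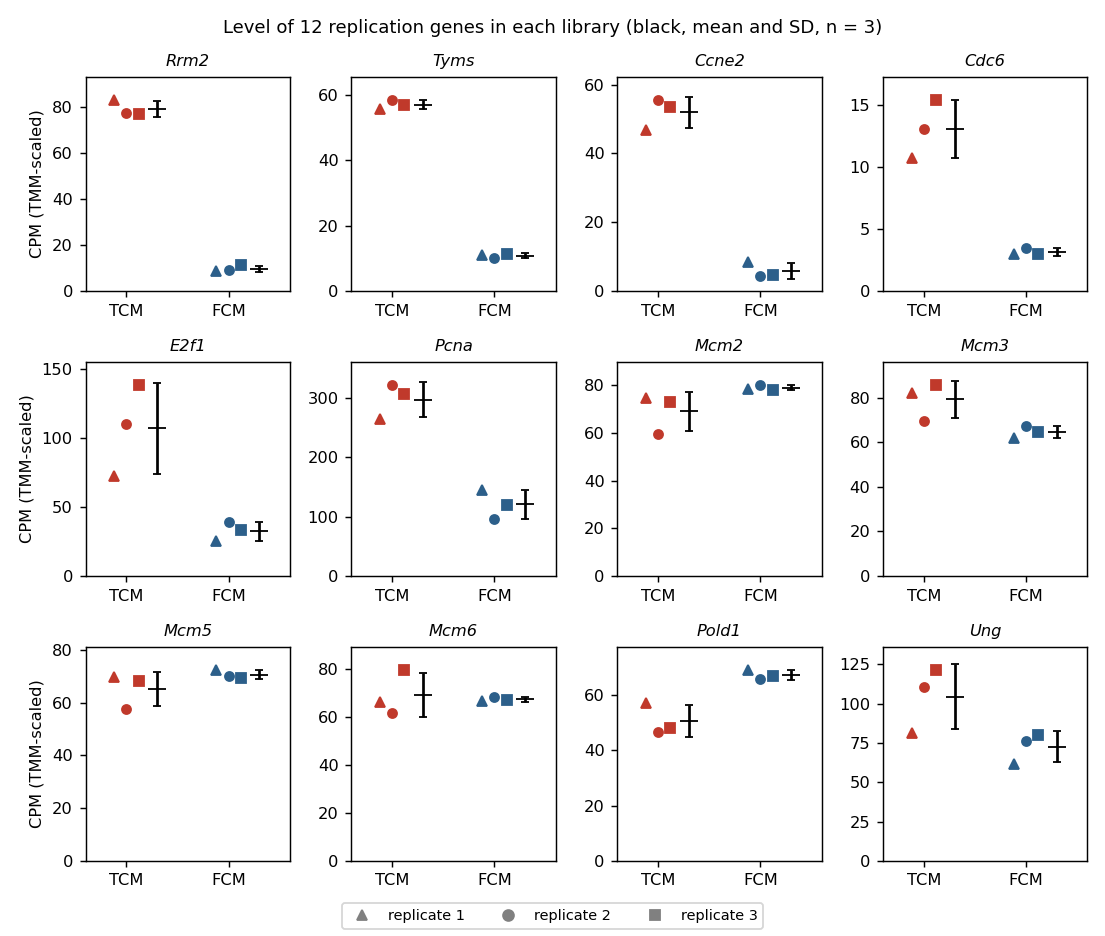
Level in CPM (y axes from 0) of 12 replication genes in the 3 TCM libraries (left) and the 3 FCM libraries (right), with symbols for replicate numbers and black marks for mean and SD. Rrm2, Tyms, Ccne2, Cdc6, E2f1 and Pcna separate widely, while Mcm5 and Mcm6 overlap and Mcm2 and Pold1 lie lower in TCM.

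All 4 genes of origin firing were higher in TCM. Gins2, a subunit of the GINS complex, had 40.0, 50.6 and 54.5 CPM in TCM against 9.71, 12.6 and 11.98 CPM in FCM, 4.22-fold higher (log2 2.08 ± 0.16; adjusted p = 1.11e-05, edgeR). Gins1, another GINS subunit, had 18.7, 17.5 and 19.3 CPM in TCM against 6.67, 6.06 and 6.79 CPM in FCM, 2.84-fold higher with nearly equal replicates. Cdc45, which completes the active helicase, averaged 12.4 ± 0.405 CPM in TCM and 5.20 ± 1.10 CPM in FCM (SD, n = 3 each), and Mcm10, which acts on the assembled helicase at firing, 11.3 ± 2.18 CPM in TCM and 4.31 ± 0.533 CPM in FCM. Their log2 fold changes were 1.26 ± 0.16 and 1.40 ± 0.17. Gins2, Gins1, Cdc45 and Mcm10 kept their calls in all 18 alternatives to the processing that follow the count table's titles and tested the gene (Mcm10 was tested in 17).

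Among clamp genes, 3 of 4 were higher in TCM. Pcna, the sliding clamp, had 264, 322 and 306 CPM in TCM against 146, 95.6 and 120.2 CPM in FCM, 2.47-fold higher (log2 1.30 ± 0.18; adjusted p = 0.00035, edgeR). FCM replicate 1 held the highest and TCM replicate 1 the lowest value of its group, so the replicate 1 pair differed less than the others. The clamp loader subunit Rfc4 averaged 16.2 ± 1.49 CPM in TCM and 7.30 ± 1.48 CPM in FCM (log2 1.16 ± 0.16). Rfc3, another loader subunit, averaged 24.3 ± 2.11 CPM in TCM and 15.8 ± 3.15 CPM in FCM (log2 0.63 ± 0.15; adjusted p = 0.00731, edgeR), and its call is lost with the transcript length trend removed (log2 0.28, adjusted p = 0.248) and with library totals alone (0.41, 0.177). Rfc2, a further loader subunit, averaged 32.3 ± 1.91 CPM in TCM and 29.6 ± 0.636 CPM in FCM and did not pass (log2 0.13 ± 0.11; adjusted p = 0.33, edgeR), although it passed with the length trend removed (0.33, 0.0325).

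The catalytic subunits of the replicative polymerases did not rise past the threshold, and Pold1 fell. Pold1, the catalytic subunit of polymerase delta, had 57.4, 46.8 and 48.0 CPM in TCM against 69.2, 66.0 and 66.8 CPM in FCM, 1.33-fold higher in FCM (log2 -0.41 ± 0.12; adjusted p = 0.0181, edgeR). All TCM libraries lay below all FCM libraries. The Pold1 call is lost without TCM replicate 2 (log2 -0.35, adjusted p = 0.0892), TCM replicate 3 (-0.36, 0.0778), FCM replicate 2 (-0.42, 0.0502) or FCM replicate 3 (-0.42, 0.0567). Pole, the catalytic subunit of polymerase epsilon, had 22.6, 26.9 and 33.1 CPM in TCM against 19.5, 23.8 and 21.4 CPM in FCM (log2 0.35 ± 0.16; adjusted p = 0.0791, edgeR). Pola1, the catalytic subunit of polymerase alpha, had 31.3, 25.9 and 24.1 CPM in TCM against 27.6, 19.9 and 17.4 CPM in FCM (log2 0.33 ± 0.18; adjusted p = 0.148, edgeR). For Pole and Pola1 the TCM and FCM values overlapped, and both genes passed with the replicate block (Pole 0.34, adjusted p = 0.00232; Pola1 0.34, 0.00255) and with the length trend removed (Pole 0.66, 0.0155; Pola1 0.55, 0.00559). They passed without replicate 1 of both groups as well (Pole 0.40, 0.00227; Pola1 0.41, 0.00164). Pole also passed with the GC trend removed (0.46, 0.0257) and without TCM replicate 1 (0.48, 0.0129), and Pola1 without FCM replicate 1 (0.54, 0.0175). Prim1, the primase that makes the RNA primers, had 28.4, 16.3 and 19.0 CPM in TCM against 11.9, 10.8 and 9.62 CPM in FCM and was 1.97-fold higher (log2 0.98 ± 0.20; adjusted p = 0.00301, edgeR).

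Genes that act behind the fork were mixed, with 3 of 5 higher in TCM. Chaf1b, a subunit of the chromatin assembly factor that places histones on new DNA, had 36.2, 33.5 and 34.3 CPM in TCM against 10.3, 11.7 and 10.1 CPM in FCM, 3.24-fold higher (log2 1.70 ± 0.11; adjusted p = 5.05e-06, edgeR). Uhrf1, which recruits the maintenance DNA methyltransferase to hemimethylated DNA, had 79.6, 62.3 and 73.0 CPM in TCM against 32.1, 29.3 and 30.9 CPM in FCM, 2.33-fold higher (adjusted p = 6.84e-05, edgeR). Both genes had tight, separate groups. Ung, the glycosylase that removes uracil from DNA, had 81.4, 111 and 122 CPM in TCM against 61.3, 76.5 and 80.2 CPM in FCM, a small separation (log2 0.52 ± 0.18; adjusted p = 0.0307, edgeR). The Ung call is lost without TCM replicate 2 (0.49, adjusted p = 0.101), TCM replicate 3 (0.41, 0.105), FCM replicate 1 (0.41, 0.0907) or FCM replicate 2 (0.57, 0.0605), and with library totals alone (0.29, 0.14). Fen1, the flap endonuclease that trims lagging strand fragments, averaged 29.7 ± 1.74 CPM in TCM and 25.9 ± 1.39 CPM in FCM (log2 0.20 ± 0.11; adjusted p = 0.147, edgeR). Slbp, which binds the stem loop of histone messages, averaged 40.6 ± 5.83 CPM in TCM and 31.3 ± 5.07 CPM in FCM (log2 0.38 ± 0.16; adjusted p = 0.0626, edgeR). Slbp passed with the replicate block (0.38, adjusted p = 0.000597), with DESeq2 (0.41, 0.0342), with the GC trend removed (0.47, 0.0122), without replicate 1 of both groups (0.38, 0.00132), without TCM replicate 3 (0.47, 0.0474) and without FCM replicate 1 (0.51, 0.0211).

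All 4 genes of G1/S control were higher in TCM. Ccne2, a cyclin that activates Cdk2 at the start of S phase, had 46.8, 55.5 and 53.4 CPM in TCM against 8.44, 4.42 and 4.61 CPM in FCM, 8.97-fold higher and the largest change among the 33 (log2 3.16 ± 0.24; adjusted p = 1.01e-05, edgeR). FCM replicate 1 was the highest FCM library for Ccne2. Its paralog Ccne1 had 25.3, 28.2 and 34.9 CPM in TCM against 9.30, 11.4 and 11.8 CPM in FCM, 2.71-fold higher (log2 1.44 ± 0.16; adjusted p = 8.20e-05, edgeR). The count ratio of Ccne2 to Ccne1 was 1.85, 1.97 and 1.53 in TCM against 0.907, 0.388 and 0.39 in FCM, without overlap. E2f1, an activating E2F factor, had 72.8, 110.2 and 138 CPM in TCM against 25.3, 39.1 and 33.2 CPM in FCM, 3.29-fold higher with a wide spread in TCM (log2 1.72 ± 0.25; adjusted p = 0.000406, edgeR). Dtl, the substrate receptor of the ubiquitin ligase that removes Cdt1 in S phase, averaged 19.9 ± 1.47 CPM in TCM and 11.3 ± 2.10 CPM in FCM (log2 0.81 ± 0.15; adjusted p = 0.00171, edgeR). The Dtl call is lost with library totals alone (0.60, 0.0569).

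Levels per transcript length, as mean CPM per kb of the longest coding transcript, put the genes in a different order in the groups. Pcna stood first in both, at 196 ± 19.8 CPM per kb in TCM and 79.4 ± 16.5 in FCM (SD, n = 3 each), followed by Ung at 49.0 ± 9.74 in TCM and 34.0 ± 4.68 in FCM. E2f1 ranked 3rd in TCM (38.9 ± 11.96 CPM per kb) and 13th in FCM (11.8 ± 2.50), and Rrm2 ranked 4th in TCM (36.1 ± 1.54) and 23rd in FCM (4.43 ± 0.557). In TCM, neither Ung and E2f1 nor E2f1 and Rrm2 differed beyond their spread. Mcm2 to Mcm7, which form a ring of equal parts, lay within 1.65-fold of each other in TCM and 1.52-fold in FCM on this scale, while the 33 genes spanned 84.1-fold in TCM and 116-fold in FCM. Cdc6 and Mcm10 had the lowest levels in both groups, at 2.83 and 2.33 CPM per kb in TCM and 0.683 and 0.886 in FCM. In the FCM libraries the 20 genes called higher had a median of 5.49 CPM per kb and the 12 that did not pass 17.2 CPM per kb. Without division by length, the median level of the 20 genes was 10.8 CPM in FCM and 32.1 CPM in TCM. For the 12 genes it was 56.0 CPM in FCM and 60.1 CPM in TCM. The call itself uses the FCM values, so a low FCM level among genes called higher is partly built in.

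**Figure D4:**
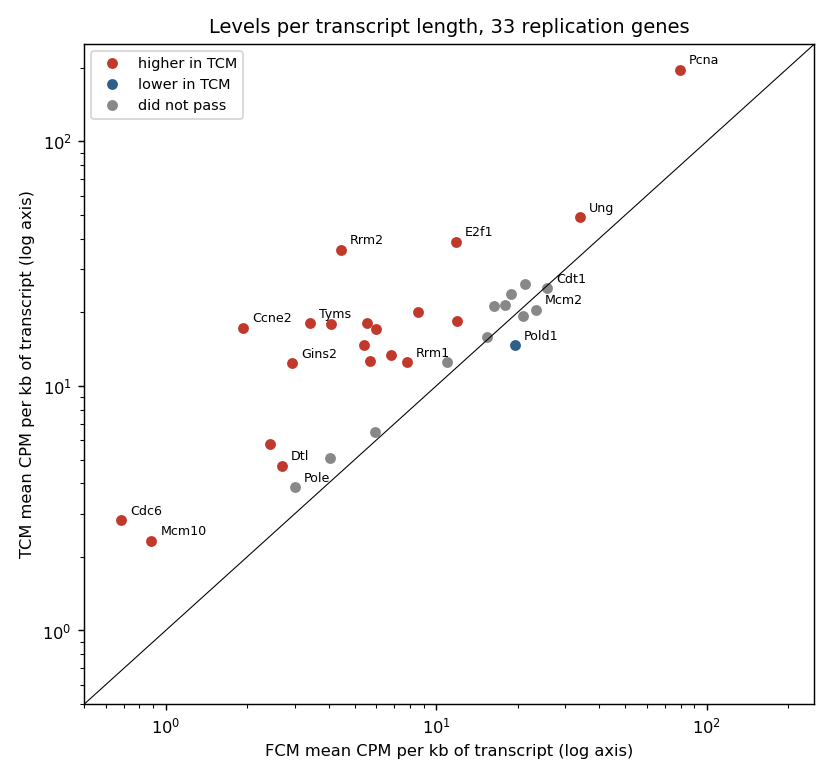
Mean level in CPM per kb of transcript in TCM (y axis) against FCM (x axis) for the 33 genes, both axes logarithmic, with the line of equal levels. The genes that did not pass lie along the line, and Rrm2 (36.1 in TCM, 4.43 in FCM) and Ccne2 (17.3 in TCM, 1.94 in FCM) lie farthest above it.

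Fold changes were lower for longer transcripts over all genes, and lengths differed between the replication genes. The median log2 fold change of all genes tested was 0.48 among the shortest of 5 equal classes of transcripts (up to 1701 bases), where 46.1% were called higher, and -0.36 among the longest (from 4994 bases), where 15.5% were. The 20 replication genes called higher had a median length of 2168 bases and the 12 that did not pass 3376 bases. In the shortest class 6 of 6 replication genes were called higher, and between 3545 and 4993 bases 6 of 8 were, against 21.4% of all genes of that length. The longest class held 3 (Pola1, Pole and Rfc2), of which 0 were called by edgeR, 0 had an unadjusted p under 0.05, and 0 were called by limma voom or DESeq2. With the trend on length removed, 24 of the 33 were higher and 1 lower (29.3% and 28.7% of all genes), and the median log2 fold change was 0.79.

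**Figure D5:**
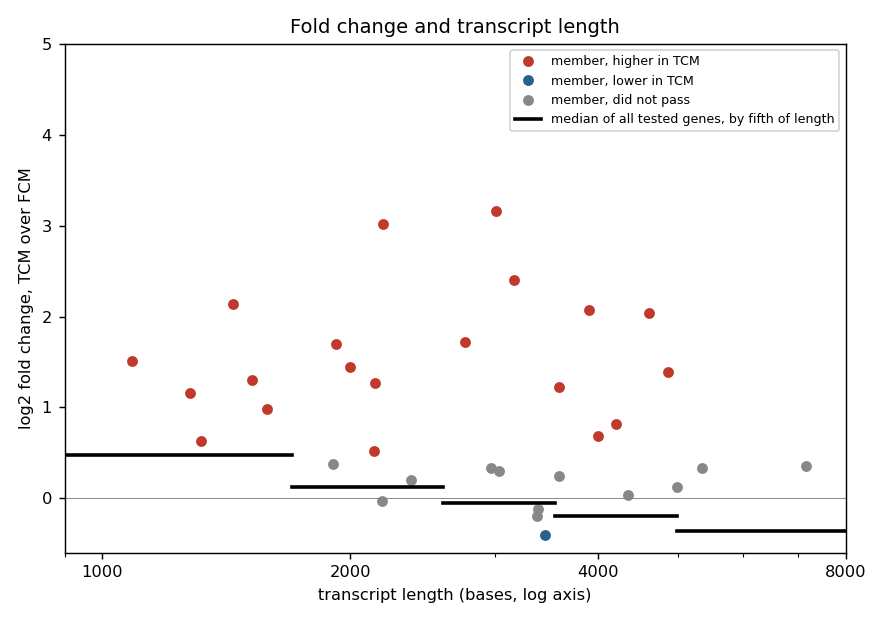
Log2 fold change of TCM over FCM (y axis) against transcript length in bases (logarithmic x axis) for the 33 genes (points), with the median of all tested genes in each of 5 length classes (black lines, from 0.48 to -0.36). Most replication genes lie above the median of their length class, and Cdt1, Mcm2, Mcm5 and Pold1 lie below it.

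Among other genes of the pathway, more were higher in TCM than lower. Of 78 further replication genes, all tested, 41 were higher in TCM (52.6%), 7 were lower (8.97%) and 30 did not pass, with a median log2 fold change of 0.46. The list is not of replication machinery alone. It includes 18 genes of G1/S control, 9 of them higher, and these hold inhibitors such as Cdkn1a. The shares over all genes tested were 28.8% higher and 30.0% lower. With the replicate block 48 were higher and 12 lower (36.3% and 37.0% of all genes), and without replicate 1 of both groups 49 and 12 (36.3% and 37.9%). The largest rise was in Cdkn1a, the CDK inhibitor p21 and a p53 target, with 1472, 1975 and 2075 CPM in TCM against 209, 303 and 295 CPM in FCM, 6.85-fold higher (adjusted p = 1.75e-05, edgeR). Dut, which clears dUTP, was 4.47-fold higher, Tipin, a fork protection factor, 3.98-fold, Dscc1, a subunit of an alternative clamp loader, 3.81-fold, and Clspn, a checkpoint mediator at the fork, 3.76-fold. Lig1, which seals lagging strand fragments, was 1.90-fold higher.

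The 7 genes of this wider list that fell were Samhd1, Tk2, Rbl1, Donson, Mcmbp, Nasp and Timeless. Samhd1, which breaks deoxynucleotides down, had 257, 197 and 185 CPM in TCM against 862, 737 and 731 CPM in FCM (log2 -1.87 ± 0.18; adjusted p = 4.55e-05, edgeR). Samhd1 thus moved opposite to Rrm2, Tyms, Tk1 and Dut, and it is also expressed in myeloid cells, whose markers were lower in the TCM libraries (neutrophil and macrophage sums above); the part of those cells in its level was not tested. The mitochondrial thymidine kinase Tk2 fell to 12.4 ± 0.617 CPM in TCM, against 24.0 ± 1.28 CPM in FCM (SD, n = 3 each). Rbl1, the pocket protein p107, averaged 26.0 ± 3.70 CPM in TCM and 46.6 ± 7.16 CPM in FCM. Donson, Mcmbp, which binds MCM proteins, and Nasp, a histone chaperone, had log2 fold changes of -0.44, -0.43 and -0.36, and each lost its call in 4 or more of 18 alternatives, among them the fits without TCM replicate 2 or TCM replicate 3. Timeless, a partner of Tipin in fork protection, had a log2 fold change of -0.36 and lost its call in 8 of 18, both fits with DESeq2 scaling and the fit with the length trend removed among them. Across leave-one-out fits the count of lower genes in this list ran from 3 to 9.

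Beside these lists, 15 of 25 mitosis and spindle genes were higher in TCM (60.0%) and 10 did not pass, with a median log2 fold change of 0.54. Among all genes tested 28.8% were higher and 30.0% lower. The largest rises were in Birc5, an inhibitor of apoptosis on the mitotic spindle, at 43.0 ± 5.43 CPM in TCM and 8.09 ± 0.603 CPM in FCM, Cdk1, the kinase of mitotic entry, at 33.8 ± 0.708 CPM in TCM and 7.02 ± 2.13 CPM in FCM, and Mad2l1, a spindle checkpoint protein, at 79.2 ± 12.7 CPM in TCM and 17.3 ± 4.40 CPM in FCM (SD, n = 3 each). Whether the replication and mitosis genes differ in their response was not tested.

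Some counts carry uncertainty from shared sequence. In GENCODE M21 on GRCm38, 10 of the 33 genes share exonic bases with another gene, and the strand setting of the counting is not given in the sources used here. Ccne2 (chromosome 4, 11191351 to 11204779) shares bases with Ints8 on the opposite strand, which had 29.9 ± 5.33 CPM in TCM and 40.2 ± 10.8 CPM in FCM and did not pass. Gins2 (chromosome 8, 120578633 to 120589304) shares bases with Gse1 (59.2 ± 4.89 CPM in TCM, 52.2 ± 3.71 in FCM), Rfc4 (chromosome 16, 23113943 to 23127737) with Eif4a2 (360 ± 26.9 in TCM, 306 ± 43.4 in FCM) and Tk1 (chromosome 11, 117815526 to 117826092) with Afmid (4.50 ± 0.688 in TCM, 6.02 ± 0.459 in FCM). Neither Gse1 nor Eif4a2 passed, and Afmid was lower in TCM (adjusted p = 0.0468, edgeR). Mcm7 (chromosome 5, 138164583 to 138172422) shares bases with Cops6, which was higher in TCM (203 ± 40.7 CPM, against 116 ± 7.68 CPM in FCM). Reads of such pairs cannot be told apart without strand. Stretches at 100% identity ran to 2758 bases for Gins2 with Gse1, where the Gins2 transcript has 3900 bases. They ran to 1911 bases for Fen1 with Gm10143 and 954 bases for Rfc2 with Lat2. Processed pseudogenes at least 95% identical over 500 or more bases exist for Cdc6, Mcm7, Pcna, Slbp and Uhrf1, and none of these pseudogenes has a row in the count table. Stretches at least 95% identical were found in transcripts of other genes as well, 31 for Tyms (20 with a row in the count table, up to 361 bases). There were 21 for Rfc2 (6 with a row, Lat2 among them) and 18 for Mcm5 (11 with a row). Rrm2 had 2 pseudogenes (0 with a row, up to 419 bases).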

How the data were processed

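RNA was sequenced from 6 splenocyte libraries, 3 per group. The deposited raw table gives exon reads as whole-number counts for each gene symbol. The deposited normalized table gives a signal, in which the authors scaled those counts with 1 size factor for each library. Whole reads were recovered from 100% of its values above 0 (tolerance 0.1 reads) and equalled the count columns with the other group's title. STAR 2.7.2d, DESeq2 1.28.1 and the mm10 build are named in the submitters' processing notes. Counting tool, annotation and strand setting: not given in the sources used here. Columns were assigned by title, and 92 spike-in rows with 0 counts were left out.

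Genes kept by filterByExpr were TMM-scaled and tested with edgeR 4.0.16 (quasi-likelihood, R 4.3.3, group as sole term), with Benjamini-Hochberg adjustment over 12423 genes at 0.05. Standard errors of log2 fold changes were taken as the absolute change over the root of the F statistic. Alternatives used DESeq2 1.42.0, limma 3.58.1, other scalings and filters, left-out libraries, a replicate block, and lowess trends (span 0.3) on transcript length or GC content, for which 99.0% of tested genes had a GENCODE M21 transcript. Same-numbered libraries deviated together across genes (r = 0.6, 0.146 and 0.36 for replicates 1, 2 and 3), but no label states that the numbers pair the libraries. The main fit did not pair them, and the replicate block was run only as an alternative. Replicate 1 alone correlated best with its own number: TCM replicate 2 correlated more with FCM replicate 3 (0.266) and TCM replicate 3 more with FCM replicate 2 (0.424) than with their own numbers. Replicates of 1 group differed beyond sampling noise (chi-square per gene 4.87 to 104). Counts set precision: 1 count was worth 0.0388 to 0.0583 CPM before scaling. Near-identical transcripts were sought with blastn 2.17.0.

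The text names all 33 members by role, the 6 largest rises and falls of the other replication genes with Cdkn1a and Lig1 (1 gene of that list is not reported here), and the 3 largest rises of the mitosis list. The overlapping neighbours were chosen after their values were seen. Members, lists and alternatives were chosen with earlier results of these data known.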

Additional observations from a re-analysis of the deposited data

How the results depend on the processing

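The choice of table titles decides every direction. Under the titles of the normalized table, 1 of the 33 genes is higher in TCM and 20 are lower, the median log2 fold change is -0.81, and the other replication genes have 7 higher and 41 lower. Of all genes tested, 30.0% are higher in TCM under those titles and 28.8% lower. The log2 fold changes are then Cdc6 -2.04, Cdt1 0.032, Mcm2 0.19, Mcm3 -0.30, Mcm4 -0.25, Mcm5 0.12, Mcm6 -0.040, Mcm7 -0.33, Mcm10 -1.40, Cdc45 -1.26, Gins1 -1.51, Gins2 -2.08, Pcna -1.30, Rfc2 -0.13, Rfc3 -0.63, Rfc4 -1.16, Pola1 -0.33, Prim1 -0.98, Pole -0.35, Pold1 0.41, Fen1 -0.20, Ung -0.52, Chaf1b -1.70, Uhrf1 -1.22, Slbp -0.38, Rrm1 -0.68, Rrm2 -3.02, Tyms -2.40, Tk1 -2.14, E2f1 -1.72, Ccne1 -1.44, Ccne2 -3.16 and Dtl -0.81.

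With scaling by library totals alone, 16 of the 33 were higher, their median was 0.60, and 28 other replication genes were higher, where 19.0% of all genes were higher. Library totals alone shifted the median of all genes to -0.23, and 37.4% of calls were higher against 49.0% with TMM. Mcm6 (-0.18), Rfc2 (-0.085) and Fen1 (-0.016) changed sign there without passing the test. The length trend removed together with the replicate block gave 27 of the 33 higher and 1 lower. Over all genes that fit called 35.4% higher and 34.6% lower. The Cdt1 value, near 0, was 0.0016 with DESeq2 size factors, 0.0018 with DESeq2's test and -0.077 to 0.0088 when 1 library was left out, and Mcm6 then ran from -0.064 to 0.124. Leaving out 1 library gave 19 to 21 genes higher and 0 to 1 lower, where 22.7% to 31.9% of all genes were higher and 22.3% to 33.2% lower, a median of 0.69 to 0.96, 35 to 47 other replication genes higher and 3 to 9 lower, and 5696 to 8229 calls over all genes. The replicate block gave 26 higher and 1 lower, 12 other replication genes lower against 7, and 9103 calls over all genes (36.3% higher and 37.0% lower). Of the 33 it changed the calls of Mcm3, Mcm4, Mcm7, Pola1, Pole and Slbp, given in the report, and no other call. Without replicate 1 of both groups, 2 of the 33 and 12 other replication genes were lower, where 37.9% of all genes were lower. The cause of these differences was not tested. With 3 libraries per group, the smallest change that passed among the 33 was that of Pold1 (-0.41), and those of Mcm2 to Mcm7 were smaller, from -0.19 to 0.33.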
